A study of Homo sapiens with 12 samples.

Results

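The 39 genes described here encode proteins of homologous recombination, the Fanconi anaemia pathway, mismatch repair and the DNA damage checkpoint. They were chosen by name, each row of the deposited count table whose symbol is on that list, and all 39 had a row among 19504 rows with a symbol. All 39 also passed the filter on low counts, which left 12392 genes for the tests. The RNA came from a pair of human lines of acute myeloid leukaemia (AML). In MV4-11 the gene of the growth factor receptor FLT3 has an internal tandem duplication, and OCI-AML3 lacks one but has a mutation of NPM1. Either line was kept for 24 h with DMSO, the vehicle, or with 5 nM AC220 (quizartinib), an inhibitor of FLT3, and each of the 4 groups of line and treatment has 3 libraries. All groups share the culture medium, and each genotype is represented by 1 line, so a difference between the lines cannot be told apart from any other feature of those lines. The labels do not say that replicates are separate cultures, so the p-values rest on differences among libraries that may be only technical.

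Homologous recombination repairs a double-strand break by copying the sister chromatid: the broken ends are resected to single strands, BRCA1, PALB2 and BRCA2 help to prepare those strands for pairing with the sister, and the joined molecules are later taken apart by helicases and nucleases. The Fanconi pathway unhooks crosslinks between DNA strands, for which a core complex with the ligase FANCL and the conjugating enzyme UBE2T attaches ubiquitin to the paired proteins FANCD2 and FANCI. Mismatch repair removes copying errors, and the kinases ATM and ATR signal breaks and stalled forks through CHEK2 and CHEK1. These pathways act mostly in S and G2 phase, and many of their genes are known to be transcribed with the cell cycle.

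Libraries held 10877198 to 16918761 counts, scaled by TMM to a common library size (CPM), so that a level is relative to the other RNA of that library. The labelled cell type was checked with markers. The summed level of 8 myeloid genes was 373 to 401 CPM in MV4-11 DMSO, 539 to 584 CPM in MV4-11 AC220 (ANPEP had no counts there), 563 to 574 CPM in OCI-AML3 DMSO and 599 to 654 CPM in OCI-AML3 AC220. The 8 genes did not move together. Their log2 fold changes with AC220 in MV4-11 ran from -3.32 to 1.46, with a median of 0.01. Under DMSO those of MV4-11 against OCI-AML3 ran from -5.15 to 1.675. Of 5 lymphoid, 4 erythroid and 4 epithelial or stromal markers, no list reached more than 8.62 CPM in any library, and CD3E, CD2, HBA1, HBB and EPCAM had no counts in any of the 12. The lymphoid sum was 1.61 to 2.32 CPM in MV4-11 DMSO and 4.93 to 5.72 CPM in MV4-11 AC220, and CD79A, a part of the B cell receptor, rose there from 0.521 ± 0.404 to 4.06 ± 0.4496 CPM (mean ± SD, n = 3; log2 fold change 2.91 ± 0.5, SE). Its part in the values of the repair genes was not tested.

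A limit of the counts bears on 8 of the 39 genes. QuantSeq reads the ends of transcripts, and in the GENCODE 29 annotation an exon of another gene lies over the last 500 bases of a transcript of RAD54L, RAD54B, RAD50, EME1, FANCA, FANCL, FANCI and MSH6. For 6 of them the other gene lies on the opposite strand and has a row of its own in the table, and the counts of each pair ran together over the 12 libraries. The ratio of RAD54L to LRRC41 counts stayed between 0.877 and 0.971 and that of EME1 to LRRC59 between 0.855 and 0.926, with correlations of log2 CPM of 0.993 and 0.996. The ratio ran from 0.980 to 1.30 for FANCL and VRK2 (r = 0.976), from 1.09 to 1.54 for MSH6 and FBXO11 (r = 0.990), from 0.929 to 1.97 for FANCI and POLG (r = 0.970) and from 0.951 to 1.32 for FANCA and ZNF276 (r = 0.823). These correlations describe 12 libraries that share their depth and their groups. Whether counting used the strand is not given in the sources used here, so reads of these genes and of their partners cannot be told apart, and counts over the other 31 genes are given beside those over all 39. RefSeq also names pseudogenes of BRCA1, RAD51AP1, RBBP8, FANCD2, PMS2 and CHEK2, and reads of near-identical copies could have been split or dropped. These were found by name only, and whether they resemble the transcript ends that were read was not checked.

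**Figure D1:**
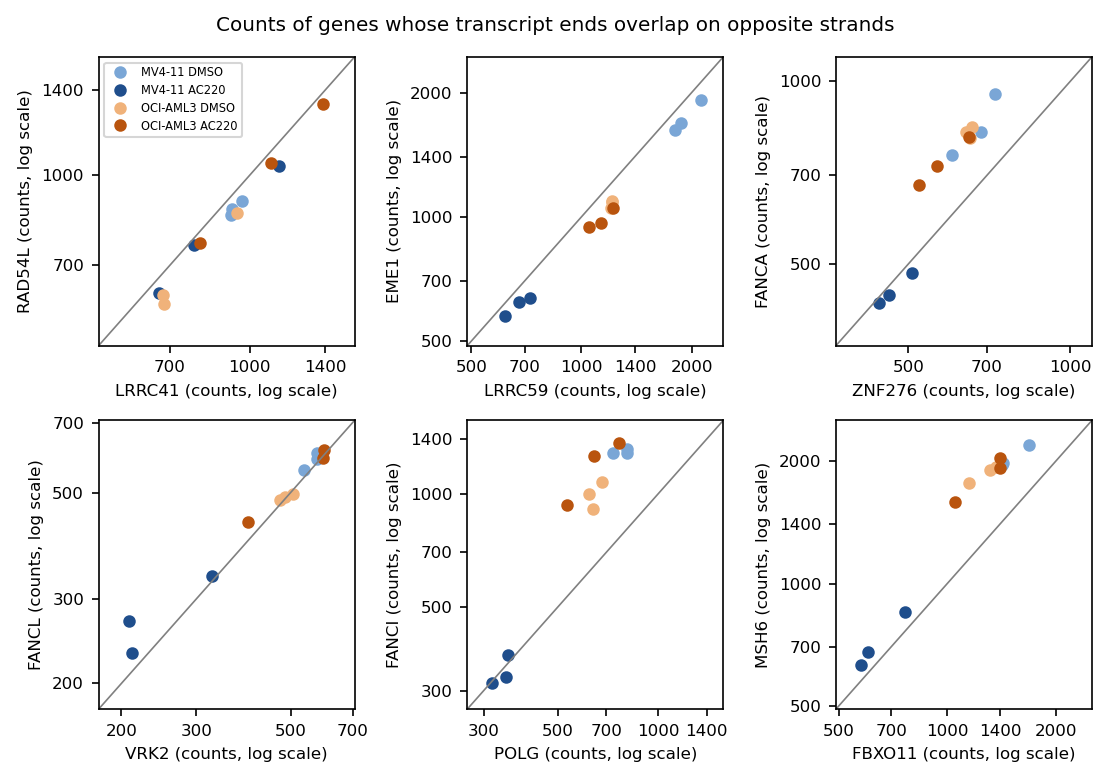
Counts per library of 6 repair genes (vertical axis, log scale) against the gene that overlaps their transcript ends on the other strand (horizontal axis, log scale); each point is 1 of 12 libraries, coloured by group, and the grey line marks equal counts. RAD54L and EME1 lie along the line, while FANCI leaves it where its counts are high.

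RefSeq start regions (GRCh38.p14, 250 bases before to 50 after the start) were at hand for 35 of the 39 genes, and 5 of them are shown because they hold a word that cell cycle factors are known to read, in genes whose transcripts fell strongly with AC220 in MV4-11 or, in the case of ATM, did not fall. Capitals mark an E2F word (TTTCCCGC, TTTGGCGC, TTTCGCGC or TTTGCCGC, on either strand) in the FANCD2 window (chr3:10026187-10026486, plus strand), the XRCC2 window (chr7:152676092-152676391, minus strand) and the EXO1 window (chr1:241847954-241848253, plus strand). In the UBE2T window (chr1:202341887-202342186, minus strand) and the ATM window (chr11:108222817-108223116, plus strand) they mark TTTGAA, the word of the cell cycle homology region (CHR). With the start base as position 0, the marked words begin at -2, 21, 4, -153 and -20 in that order.
FANCD2: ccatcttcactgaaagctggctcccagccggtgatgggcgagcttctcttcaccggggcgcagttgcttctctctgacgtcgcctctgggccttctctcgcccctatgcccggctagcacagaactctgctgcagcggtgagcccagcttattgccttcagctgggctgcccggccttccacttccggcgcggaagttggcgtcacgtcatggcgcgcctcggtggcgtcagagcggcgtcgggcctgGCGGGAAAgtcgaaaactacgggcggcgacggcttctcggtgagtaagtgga
XRCC2: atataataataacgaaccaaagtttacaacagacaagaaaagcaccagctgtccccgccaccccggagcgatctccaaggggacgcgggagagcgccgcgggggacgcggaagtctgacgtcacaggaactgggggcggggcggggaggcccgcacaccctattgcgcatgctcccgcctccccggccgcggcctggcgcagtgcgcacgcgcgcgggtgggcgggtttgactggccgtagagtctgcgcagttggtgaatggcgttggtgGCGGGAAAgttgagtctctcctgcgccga
EXO1: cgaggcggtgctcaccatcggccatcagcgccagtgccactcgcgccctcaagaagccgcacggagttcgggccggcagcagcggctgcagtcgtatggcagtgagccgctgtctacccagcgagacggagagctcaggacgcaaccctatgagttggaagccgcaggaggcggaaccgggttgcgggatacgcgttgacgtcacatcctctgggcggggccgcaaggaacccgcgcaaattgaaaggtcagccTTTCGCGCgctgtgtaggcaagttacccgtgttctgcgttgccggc
UBE2T: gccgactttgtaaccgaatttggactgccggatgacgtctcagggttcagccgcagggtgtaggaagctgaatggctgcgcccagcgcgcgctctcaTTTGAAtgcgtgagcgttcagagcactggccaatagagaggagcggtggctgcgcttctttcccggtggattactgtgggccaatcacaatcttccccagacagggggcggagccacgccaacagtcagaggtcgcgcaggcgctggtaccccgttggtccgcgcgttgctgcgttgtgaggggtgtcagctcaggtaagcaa
ATM: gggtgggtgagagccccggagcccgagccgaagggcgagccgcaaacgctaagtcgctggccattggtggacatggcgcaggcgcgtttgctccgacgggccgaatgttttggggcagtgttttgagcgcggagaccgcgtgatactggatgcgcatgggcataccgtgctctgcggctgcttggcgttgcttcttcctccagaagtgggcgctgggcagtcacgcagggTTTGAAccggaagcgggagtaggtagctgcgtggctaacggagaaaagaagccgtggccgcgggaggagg

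An E2F word was found in the windows of 9 of 35 genes (25.7%): XRCC2, EXO1, RMI1, FANCA, FANCC, FANCD2, MSH6, PMS2 and TOPBP1. The share among all 27305 genes with a window was 3.99%, and among the 9877 tested genes with one it was 6.66%. TTTGAA stood in 5 of 35 (14.3%; POLQ, FANCC, UBE2T, BRIP1 and ATM) against 18.2% and 14.0%, and CCAAT, the word of NF-Y, in 18 of 35 (51.4%) against 39.7% and 43.2%. The words were searched on both strands, and no E2F word contains TTTGAA or CCAAT. In addition, 11 of the 35 genes have more than 1 window and so more than 1 chance to hold a word, and a match is a description of the letters and not a binding site. Among the 9 genes with an E2F word are large falls in MV4-11 (-3.72 for XRCC2, -3.06 for EXO1 and -2.33 for FANCD2, as log2 fold changes) and small differences (-0.42 for FANCA, which passed the test, and -0.34 for PMS2, which did not), and BRCA1 and RAD51AP1, at -2.51 and -3.04, have no E2F word in theirs.

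In MV4-11, transcripts of most of these repair genes fell with AC220. The 39 genes together held 1653 ± 7.02 CPM (mean ± SD, n = 3) under DMSO and 801 ± 30.5 CPM under AC220, whereas in OCI-AML3 they held 1656 ± 28.3 and 1739 ± 27.2 CPM. Of the 39, 30 were called lower, against 26.9% of all genes tested, 25 of them by at least 2-fold (8.74% of all genes), and 1 was called higher (31.5% of all genes). A call needs an adjusted p under 0.05 in edgeR's quasi-likelihood F test on all 12 libraries, with Benjamini-Hochberg adjustment over 12392 genes. The median log2 fold change of the 39 was -1.26 and that of all genes 0.07. Over the 31 genes without another gene at their transcript ends, 24 were lower, 1 was higher and the median was -1.61. Since this is bulk RNA, fewer cells that express these genes and less RNA per cell cannot be told apart.

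Markers of proliferating cells moved with these genes. All 12 proliferation markers fell in MV4-11, with a median log2 fold change of -2.54, among them MKI67 (-2.87 ± 0.062, SE) and TOP2A (-2.63 ± 0.071), the topoisomerase that untangles sister chromatids. Their summed level went from 3094 to 3186 CPM under DMSO to 499.98 to 569 CPM under AC220, and it lay between 3874 and 4009 CPM and between 3723 and 3967 CPM in the OCI-AML3 groups. Their part in the values of the repair genes was not tested.

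**Figure D2:**
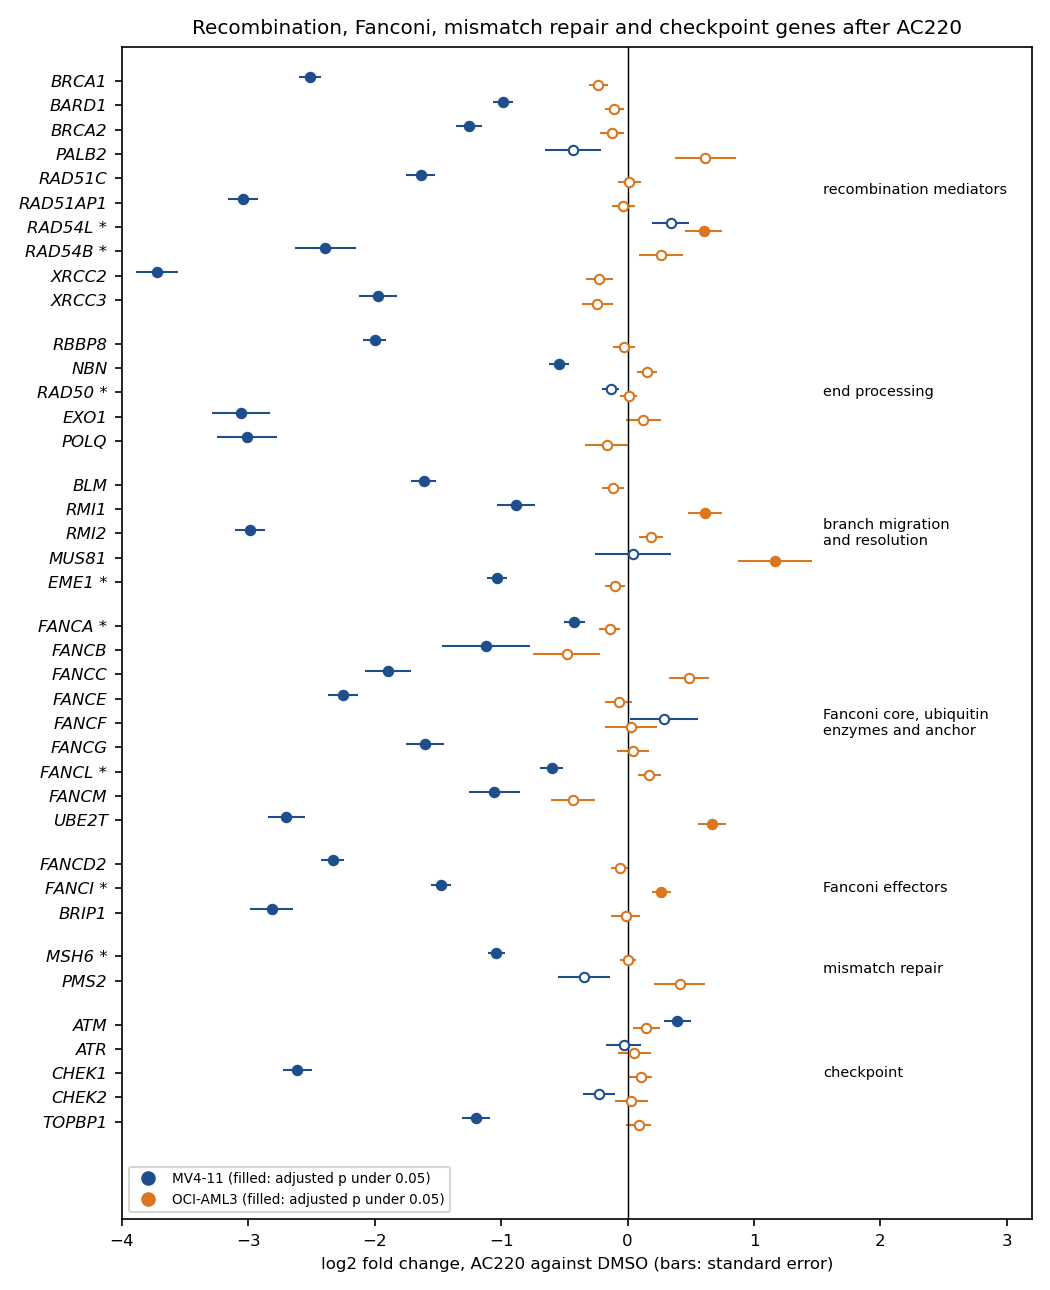
Log2 fold change of each of the 39 genes, AC220 against DMSO (horizontal axis; bars are standard errors), in MV4-11 (blue) and OCI-AML3 (orange), grouped by role; filled points passed an adjusted p of 0.05, and an asterisk marks a gene with another gene at its transcript ends. In MV4-11, 30 filled points lie below 0 and 1, ATM, above it, while in OCI-AML3 the filled points, 5 in number, lie above 0.

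Among the 10 genes of recombination mediators and their helpers, 8 fell in MV4-11 and the median log2 fold change was -1.81. BRCA1, which with BARD1 forms a ubiquitin ligase that favours resection and recombination, stood at 86.6, 86.5 and 83.2 CPM in the DMSO libraries of MV4-11 and at 15.5, 14.98 and 14.4 CPM under AC220. The 3 treated libraries lie close together and far below the DMSO libraries, a 5.70-fold fall (log2 fold change -2.51 ± 0.087, adjusted p = 2.7e-20). In OCI-AML3 its levels were 81.9, 82.2 and 84.2 CPM under DMSO and 76.7, 70.2 and 64.7 CPM under AC220, groups that do not overlap but whose difference did not pass the test (-0.23 ± 0.075, adjusted p = 0.0708). RAD51AP1, a DNA-binding protein that stimulates strand invasion, went from 44.8, 48.5 and 39.6 CPM to 4.71, 5.95 and 5.54 CPM in MV4-11 (-3.04 ± 0.12, adjusted p = 3.9e-19). In OCI-AML3 it was at 55.2, 54.1 and 58.7 CPM under DMSO and 54.3, 51.3 and 58.6 CPM under AC220. These groups overlap, and in MV4-11 every treated library lies far below every DMSO library.

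XRCC2, RAD51C and XRCC3, related proteins of recombination, fell together. XRCC2 had the largest fall of the 39 and is named for that, a choice made after its values were seen: 23.02, 24.9 and 25.2 CPM under DMSO and 1.59, 1.49 and 2.45 CPM under AC220 (-3.72 ± 0.17, adjusted p = 1e-17), from the gene whose start region is shown above. These treated levels rest on 64 counts over the 3 libraries, against 1177 under DMSO. RAD51C and XRCC3 fell by less, with log2 fold changes of -1.64 ± 0.12 and -1.98 ± 0.15 (SE). BRCA2, a mediator that acts at single-stranded DNA, went from 43.8 ± 1.97 to 18.3 ± 1.05 CPM (-1.26 ± 0.1) and BARD1 from 67.4 ± 3.63 to 34.1 ± 2.20 CPM (-0.98 ± 0.082). The bridge between BRCA1 and BRCA2, PALB2, was at 6.49, 5.39 and 7.71 CPM under DMSO and 5.69, 3.44 and 5.26 CPM under AC220, and the groups overlap (-0.43 ± 0.22, adjusted p = 0.0918). Of the RAD54 translocases, which open chromatin for strand exchange, RAD54B fell (-2.39 ± 0.24, adjusted p = 8.8e-10), on 59 counts under AC220. RAD54L, whose counts run with those of LRRC41, did not pass in MV4-11: 52.4, 56.1 and 54.9 CPM under DMSO and 78.8, 70.5 and 57.1 CPM under AC220, groups that do not overlap (0.34 ± 0.14, adjusted p = 0.0576). RAD54L passed as higher with median-ratio size factors (adjusted p = 0.0421), DESeq2 (0.0273) and limma-voom (0.0267).

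Of the 5 genes that process broken ends, 4 fell, with a median of -2.002 over the 5. RBBP8 (CtIP), the cofactor with which the MRE11 nuclease starts resection, went from 81.5, 82.5 and 77.2 CPM to 18.4, 19.4 and 22.4 CPM in MV4-11 (-2.002 ± 0.089, adjusted p = 8.6e-18). The treated libraries lie far below the DMSO libraries. In OCI-AML3, RBBP8 was at 36.7, 37.7 and 38.01 CPM under DMSO and 37.5, 35.8 and 37.2 CPM under AC220, groups that overlap. EXO1, the exonuclease of long-range resection, went from 8.18, 7.70 and 10.03 CPM to 1.37, 1.02 and 0.635 CPM (-3.06 ± 0.23, adjusted p = 1.8e-12), on 36 counts in the treated group. In OCI-AML3 it was at 16.6, 20.5 and 21.2 CPM under DMSO and at 21.1, 20.5 and 22.1 CPM under AC220, where the groups overlap. POLQ, the polymerase of theta-mediated end joining, which joins resected ends without a sister chromatid, fell as well (-3.01 ± 0.24, adjusted p = 1.3e-11). Of the other subunits of the MRE11 complex, NBN fell from 94.8 ± 4.91 to 65.03 ± 6.22 CPM (-0.54 ± 0.079), and RAD50, with another gene at a transcript end, stood at 165 ± 9.39 and 150.4 ± 2.56 CPM without passing the test (-0.13 ± 0.066, adjusted p = 0.085).

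Of the 5 genes that take joined molecules apart, 4 fell, with a median of -1.03. RMI2, a subunit of the complex in which the helicase BLM and TOP3A dissolve double Holliday junctions, went from 44.99, 43.3 and 48.7 CPM to 5.77, 5.49 and 5.99 CPM in MV4-11 (-2.99 ± 0.12, adjusted p = 3.4e-19). BLM itself went from 47.1, 47.7 and 47.1 CPM to 13.6, 16.6 and 16.3 CPM (-1.61 ± 0.099, adjusted p = 1.9e-14). The third member on the list, RMI1, fell by less, from 14.4, 16.5 and 18.3 CPM to 9.49, 7.44 and 9.71 CPM (-0.88 ± 0.15, adjusted p = 1e-05), so that the subunits of 1 complex did not fall by the same factor. In OCI-AML3, BLM stood at 40.4, 46.8 and 44.9 CPM under DMSO and 41.9, 38.6 and 41.5 CPM under AC220, and RMI2 at 27.8, 29.9 and 32.5 CPM and 33.9, 36.2 and 32.5 CPM. Neither passed the test there. MUS81, the nuclease that cuts joint molecules with EME1, was at 7.83, 11.1 and 10.7 CPM under DMSO and 13.7, 9.02 and 7.44 CPM under AC220 in MV4-11, groups that overlap (0.04 ± 0.3, adjusted p = 0.923). EME1 had a log2 fold change of -1.03 ± 0.082, with LRRC59, its overlapping neighbour, at -1.04.

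In the Fanconi core group, 8 of 9 genes fell, with a median of -1.12. FANCE, the core subunit that contacts FANCD2, went from 52.2, 47.1 and 49.4 CPM to 9.26, 11.7 and 10.4 CPM in MV4-11 (-2.25 ± 0.12, adjusted p = 5.9e-16), and in OCI-AML3 it was at 36.4, 33.95 and 28.04 CPM and 32.3, 33.8 and 27.7 CPM. UBE2T, the conjugating enzyme that works with FANCL, went from 43.7, 44.1 and 46.2 CPM to 7.67, 6.70 and 6.08 CPM (-2.70 ± 0.15, adjusted p = 3.7e-13). Both genes show groups in MV4-11 that are far apart beside their spread. FANCC, partner of FANCE, and FANCG, partner of FANCA, had log2 fold changes of -1.90 ± 0.18 and -1.60 ± 0.15. FANCM, the translocase that anchors the core to DNA, fell from 6.42 ± 0.615 to 3.09 ± 0.361 CPM (-1.05 ± 0.2). FANCB, which holds FANCL in the core, was low throughout, with 2.32, 1.80 and 2.89 CPM under DMSO and 0.455, 1.40 and 1.45 CPM under AC220 (-1.12 ± 0.35, adjusted p = 0.00714). Without MV4-11 AC220 replicate 1, the lowest library, FANCB did not pass (-1.12 became -0.71, adjusted p = 0.0781). FANCA and FANCL, which share transcript ends with other genes, had smaller falls of -0.42 ± 0.086 and -0.60 ± 0.093, while the neighbours ZNF276 and VRK2 were at -0.04 and -0.72. FANCF, the third partner of FANCC and FANCE, was at 1.80, 2.12 and 2.12 CPM under DMSO and 1.67, 2.51 and 3.27 CPM under AC220 and did not pass (0.29 ± 0.27, adjusted p = 0.37).

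All 3 Fanconi effectors fell, with a median of -2.33. FANCD2, the protein whose ubiquitin marks a crosslink for repair, went from 67.95, 72.5 and 67.2 CPM to 13.4, 12.6 and 15.2 CPM in MV4-11 (-2.33 ± 0.089, adjusted p = 2.4e-19), and its E2F word lies over the start of transcription in the window shown. In OCI-AML3 the levels of FANCD2 were 102, 104 and 100.1 CPM under DMSO and 105, 93.4 and 95.5 CPM under AC220, and the groups overlap. FANCI, its partner, went from 76.7, 82.7 and 82.7 CPM to 28.3, 29.3 and 29.5 CPM (-1.47 ± 0.08, adjusted p = 9.9e-16). The treated libraries held 373, 315 and 325 counts of FANCI beside 355, 317 and 350 of POLG, whose exons overlap it, and under DMSO FANCI had 1322, 1290 and 1287 counts beside 805, 809 and 731. BRIP1, a helicase that binds BRCA1, went from 16.5, 14.7 and 16.1 CPM to 2.28, 2.70 and 1.72 CPM (-2.82 ± 0.17, adjusted p = 2e-14).

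Of the mismatch repair genes, MSH6, which recognises single mismatches, went from 127, 126 and 127 CPM to 64.5, 58.7 and 61.6 CPM in MV4-11 (-1.04 ± 0.068, adjusted p = 9.2e-14), and FBXO11, which overlaps it, had a log2 fold change of -0.75. In OCI-AML3 MSH6 was at 137, 144 and 139.7 CPM under DMSO and 143, 134 and 146 CPM under AC220, with no difference in means beyond the spread (0.00 ± 0.065). PMS2, which nicks the strand to be replaced, was at 5.45, 5.19 and 6.68 CPM and 4.71, 3.54 and 5.35 CPM in the MV4-11 groups, which overlap (-0.34 ± 0.21, adjusted p = 0.153).

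The checkpoint genes split. CHEK1, the kinase that carries the ATR signal to the cell cycle, went from 33.05, 34.7 and 30.5 CPM to 5.54, 5.02 and 5.44 CPM in MV4-11 (-2.61 ± 0.12, adjusted p = 1.1e-17), and TOPBP1, the activator of ATR, from 70.3, 74.3 and 74.9 CPM to 39.8, 26.8 and 28.4 CPM (-1.20 ± 0.11, adjusted p = 1.2e-09). TOPBP1 was higher in the first treated library than in the other two, though below every DMSO library. ATM, the kinase of double-strand breaks, was the 1 gene of the 39 that rose, from 27.9, 27.8 and 29.4 CPM to 39.7, 36.5 and 35.5 CPM (0.39 ± 0.11, adjusted p = 0.00245). Its groups do not overlap, and the rise is 1.31-fold. ATR (-0.03 ± 0.14, adjusted p = 0.864) and CHEK2 (-0.23 ± 0.13, adjusted p = 0.134) did not pass the test. In OCI-AML3, CHEK1 was at 38.1, 33.6 and 36.9 CPM under DMSO and 38.1, 38.5 and 39.95 CPM under AC220, TOPBP1 at 94.4, 87.1 and 99.9 CPM and 97.8, 92.6 and 108 CPM, and ATM at 22.1, 29.1 and 31.3 CPM and 27.8, 31.996 and 31.7 CPM. None of these 3 passed there.

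**Figure D3:**
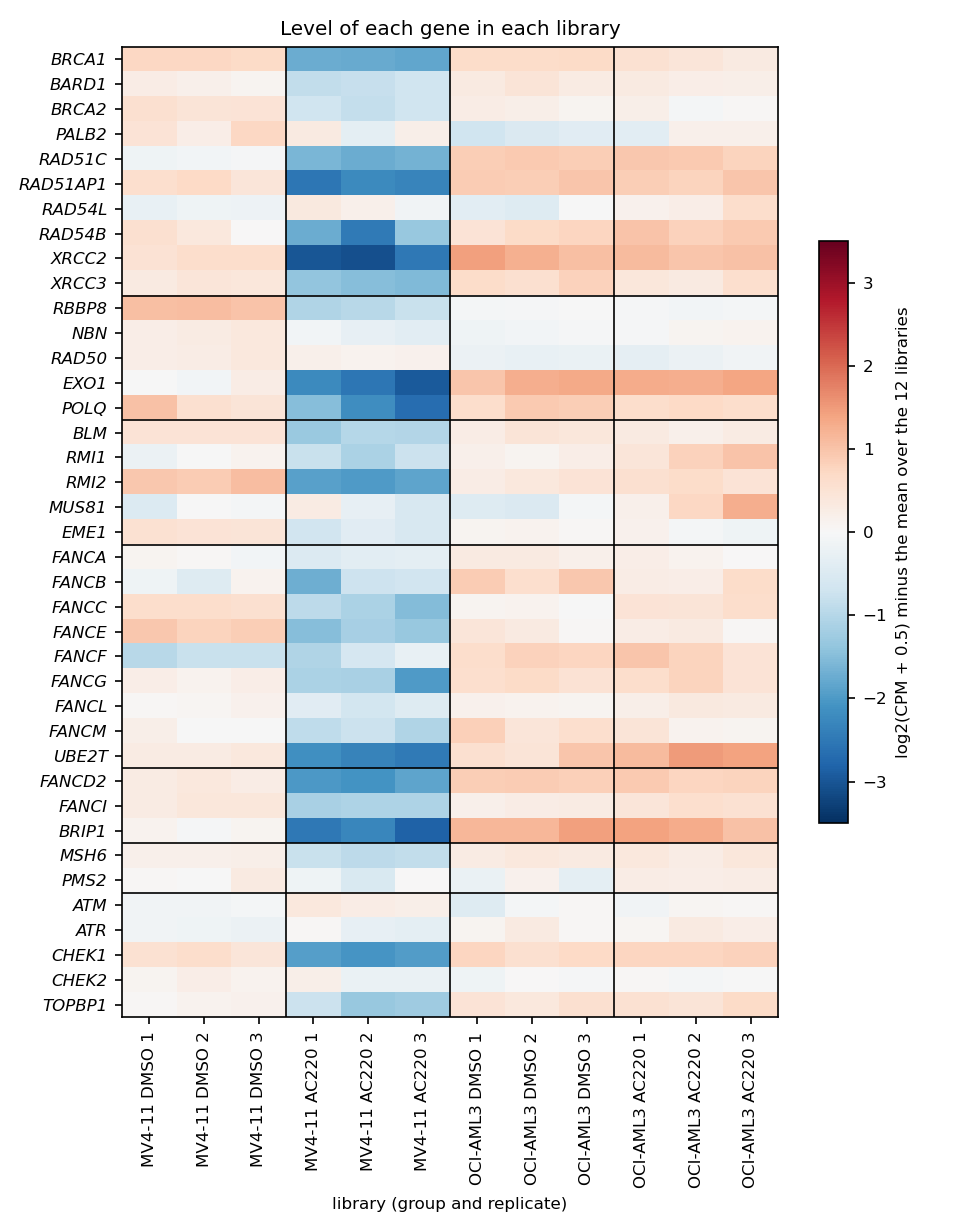
Level of each of the 39 genes (rows, by role) in each of 12 libraries (columns), as log2(CPM + 0.5) minus the gene's mean over the libraries; blue is below and red above that mean. In 31 genes all 3 MV4-11 AC220 libraries lie below the mean, and at least 1 lies above it for PALB2, RAD54L, RAD50, MUS81, PMS2, ATM, ATR and CHEK2.

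Genes whose products work as partners did not always move by the same amount. The log2 ratio of BRCA1 to BARD1 CPM (with 0.5 added) was 0.34 ± 0.05 (mean ± SD, n = 3) under DMSO and -1.16 ± 0.14 under AC220 in MV4-11, a change of -1.50, while it changed by -0.13 in OCI-AML3. The ratio of RMI2 to RMI1 changed by -2.03 in MV4-11 and by -0.39 in OCI-AML3, and that of CHEK1 to ATR by -2.46 and 0.05. In each of these pairs the first gene lost more of its level than its partner in MV4-11, and the MV4-11 groups of the ratio do not overlap. Smaller changes were seen for CHEK2 to ATM (-0.62 in MV4-11 and -0.12 in OCI-AML3) and NBN to RAD50 (-0.41 and 0.14). The ratio of UBE2T to FANCL changed by -2.03 in MV4-11 and by 0.51 in OCI-AML3, and that of FANCD2 to FANCI by -0.84 and -0.32. The groups of the ratio do not overlap in either line for BLM to RMI1 (-0.73 and -0.69) and EME1 to MUS81 (-1.02 and -1.16). The same holds for NBN to RAD50, UBE2T to FANCL and FANCD2 to FANCI. For BRCA2 to PALB2 (-0.81 and -0.64) and the remaining pairs the groups overlap in OCI-AML3 only. How often other pairs of genes show such gaps was not tested. These pairs were picked with the values known and were not tested, and a ratio shows unequal change only. RAD50, FANCL, FANCI and EME1 have another gene at their transcript ends, so their ratios may hold reads of that gene.

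In OCI-AML3, 5 of the 39 genes were called higher with AC220, against 3.44% of all genes tested, and none lower, against 0.508%, in edgeR's quasi-likelihood test. The median log2 fold change was 0.03, and that of all genes was 0.00. At an unadjusted p under 0.05, 7 were higher and 3 lower, against 1633 higher and 941 lower of all 12392 genes. DESeq2 and limma-voom each called 1 lower, BRCA1 (adjusted p = 0.0243 and 0.0451). Over the 31 genes without overlapping ends, 3 were higher. Over all genes tested, 87.1% of calls in this line were higher, and this share was 74.2% with median-ratio size factors and 71.5% with DESeq2.

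UBE2T had the smallest adjusted p of the 5. It was at 53.3, 48.99 and 70.7 CPM under DMSO and 78.01, 101 and 96.01 CPM under AC220 in OCI-AML3 (0.67 ± 0.11, adjusted p = 0.00502), opposite in direction to MV4-11. RMI1 was at 18.9, 17.7 and 19.9 CPM and 22.6, 29.4 and 33.99 CPM (0.61 ± 0.13, adjusted p = 0.0131), and MUS81 at 8.08, 7.75 and 10.5 CPM and 12.7, 18.7 and 27.5 CPM (1.17 ± 0.29, adjusted p = 0.0494). In each of these genes the groups do not overlap. The third AC220 library was the highest for RMI1 and MUS81 and also for RAD54L, and the third DMSO library was the highest of its group as well. For UBE2T and FANCI too the third DMSO library was the highest of its group. RAD54L, whose counts run with those of LRRC41, was at 48.5, 45.6 and 62.1 CPM and 68.9, 72.9 and 95.1 CPM (0.60 ± 0.14, adjusted p = 0.0359), and LRRC41 had a log2 fold change of 0.52 (adjusted p = 0.069). FANCI, at 70.7, 76.1 and 77.7 CPM and 84.3, 94.7 and 90.8 CPM, rose by 1.20-fold (0.27 ± 0.074, adjusted p = 0.0378), and POLG had a log2 fold change of 0.02.

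None of these 5 calls held under every alternative. The number of genes called higher was 0 without OCI-AML3 DMSO replicate 1, and 1 without OCI-AML3 DMSO replicate 2, OCI-AML3 AC220 replicate 2 or OCI-AML3 AC220 replicate 3. It was 2 without any 1 of the 3 MV4-11 DMSO libraries, which enter the estimate of spread, and 3 without MV4-11 AC220 replicate 2. UBE2T lost its call without OCI-AML3 DMSO replicate 1 (adjusted p = 0.0675), in the fit of the OCI-AML3 libraries alone (0.0534) and with limma on the authors' normalised values (0.125).

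**Figure D4:**
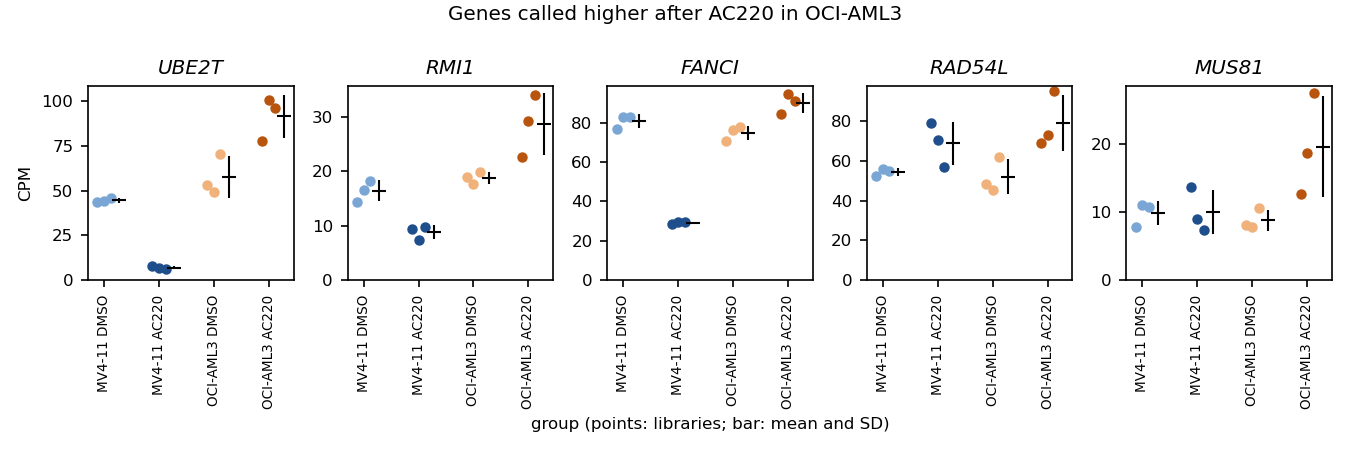
CPM of the 5 genes called higher with AC220 in OCI-AML3, in all 4 groups (horizontal axis; points are libraries, black bars the mean and SD of 3). UBE2T, RMI1 and FANCI lie lower in MV4-11 AC220 than in MV4-11 DMSO and higher in OCI-AML3 AC220 than in OCI-AML3 DMSO.

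The response to AC220 differed between the lines in 30 of the 39 genes by the test of the difference itself, all of them more negative in MV4-11 (lower in 23.7% of all genes tested). No gene of the 39 had a higher response in MV4-11 (23% of all genes). None did at an unadjusted p under 0.05 (3265 of all 12392 genes), nor with DESeq2 or limma-voom. Without OCI-AML3 DMSO replicate 1, ATM did (0.37, adjusted p = 0.0377). The median difference of the log2 fold changes was -1.49, against 0.03 over all genes. Of the 31 genes without overlapping ends, 25 differed. The largest differences were those of XRCC2 (-3.50 ± 0.2), UBE2T (-3.37 ± 0.19), EXO1 (-3.18 ± 0.27) and RMI2 (-3.17 ± 0.15). Of these, UBE2T combines a fall in 1 line with a rise in the other. RMI1 (-1.49 ± 0.2) and FANCI (-1.74 ± 0.11) also moved in opposite directions. The calls of UBE2T, RMI1 and FANCI as higher in OCI-AML3 did not hold under every alternative. PALB2 (-1.05 ± 0.33, adjusted p = 0.00956), MUS81 (-1.13 ± 0.42, adjusted p = 0.0445) and PMS2 (-0.76 ± 0.29, adjusted p = 0.0316) differed between the lines without having passed in MV4-11. The calls of MUS81 and PMS2 were lost in some alternatives. FANCA, FANCB and FANCM fell in MV4-11, but their difference between the lines did not pass (-0.28 ± 0.12, adjusted p = 0.0556 for FANCA, -0.64 ± 0.44, adjusted p = 0.244 for FANCB and -0.62 ± 0.27, adjusted p = 0.0587 for FANCM). ATM rose in MV4-11 and its difference did not pass either (0.24 ± 0.15, adjusted p = 0.198).

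Under DMSO the lines differed in many of these genes, at about the rate of all genes. MV4-11 was higher than OCI-AML3 in 9 of the 39 (32.1% of all genes tested) and lower in 16 (33.4%), with a median log2 difference of -0.14 against 0.01 over all genes. Over the 31 genes without overlapping ends it was higher in 7 and lower in 14. Called higher in MV4-11 by at least 2-fold were PALB2, at 6.49, 5.39 and 7.71 CPM in MV4-11 and 2.56, 3.04 and 3.32 CPM in OCI-AML3 (1.13 ± 0.23, adjusted p = 9.4e-05), and RBBP8, at 81.5, 82.5 and 77.2 CPM and 36.7, 37.7 and 38.01 CPM (1.10 ± 0.083, adjusted p = 1.2e-12). Lower in MV4-11 by at least 2-fold was FANCF, at 1.80, 2.12 and 2.12 CPM against 6.37, 7.37 and 7.08 CPM (-1.79 ± 0.23, adjusted p = 8.9e-08), the widest gap of the 39. BRIP1 was at 16.5, 14.7 and 16.1 CPM against 34.9, 34.5 and 41.5 CPM (-1.23 ± 0.12, adjusted p = 2.4e-10), and its AC220 libraries in OCI-AML3 held 40.8, 38.03 and 31.2 CPM. EXO1 was at 8.18, 7.70 and 10.03 CPM against 16.6, 20.5 and 21.2 CPM (-1.17 ± 0.14, adjusted p = 3.7e-08), and FANCB at 2.32, 1.80 and 2.89 CPM against 5.28, 4.18 and 5.49 CPM (-1.09 ± 0.27, adjusted p = 0.0009). Of all 12392 genes tested, 1683 were called higher and 1691 lower in MV4-11 by at least 2-fold, against 2 and 4 of the 39. The DMSO libraries of the lines do not overlap for any of the 6 genes named here. These genes were picked by the difference between the same libraries, so this adds nothing to their calls. PALB2 stood in OCI-AML3 AC220 at 3.34, 5.14 and 5.10 CPM, FANCF at 8.39, 7.15 and 5.82 CPM and FANCB at 3.25, 3.12 and 4.31 CPM. The comparisons share DMSO libraries: those of MV4-11 enter both its response to AC220 and this comparison.

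Other repair genes were read from lists chosen with earlier results known. The counts below stand beside 26.9% lower and 31.5% higher among all genes tested in MV4-11. Of 42 other recombination and Fanconi genes, 21 fell and 5 rose with AC220 in MV4-11, with a median of -0.36. The smallest p-values among those that fell were those of RPA3 (-1.98 ± 0.088), a subunit of the protein that coats single-stranded DNA, and CENPS (-1.86 ± 0.096), a histone-fold partner of FANCM, with the SE beside each value. FAAP100 (0.94 ± 0.11), which binds FANCB and FANCL, and the BRCA1-A complex subunits BABAM1 (0.36 ± 0.071) and BABAM2 (0.41 ± 0.11) rose. Of 25 other checkpoint and damage signalling genes, 17 fell and 2 rose (median -0.70), and the falls included PKMYT1 (-3.14 ± 0.099), which holds CDK1 inactive, CLSPN (-2.75 ± 0.093), the adaptor between ATR and CHEK1, and CDC25A (-2.94 ± 0.14), a phosphatase that activates cyclin-dependent kinases.

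The lists of other repair pathways held falls and rises in MV4-11, and those of end joining and nucleotide excision had shares of calls not far from those of all genes. Among 15 end joining genes, 5 fell, PRKDC (-1.20 ± 0.074), the catalytic subunit of DNA-PK, with the smallest p, and 4 rose, with DCLRE1C (0.83 ± 0.12), the nuclease Artemis, first (median 0.03). Of 19 base excision and single-strand break genes, 8 fell and 6 rose (median -0.15): UNG (-1.70 ± 0.11), which removes uracil, and NEIL3 (-2.23 ± 0.22) fell and MPG (0.64 ± 0.079) and POLB (0.93 ± 0.13) rose. Among 19 nucleotide excision genes, 5 fell and 5 rose (median 0.06), with XPA (0.72 ± 0.12), which binds damaged DNA, first among those that rose. Of 11 translesion genes, 6 fell, MAD2L2 (-1.37 ± 0.092) first, and 2 rose (median -0.25). Differences between these lists and the 39 genes were not tested. In OCI-AML3, 2 of the 42, 1 of the 25, 1 of the 19 nucleotide excision genes and 2 of the 11 translesion genes were called higher (3.44% of all genes tested).

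**Figure D5:**
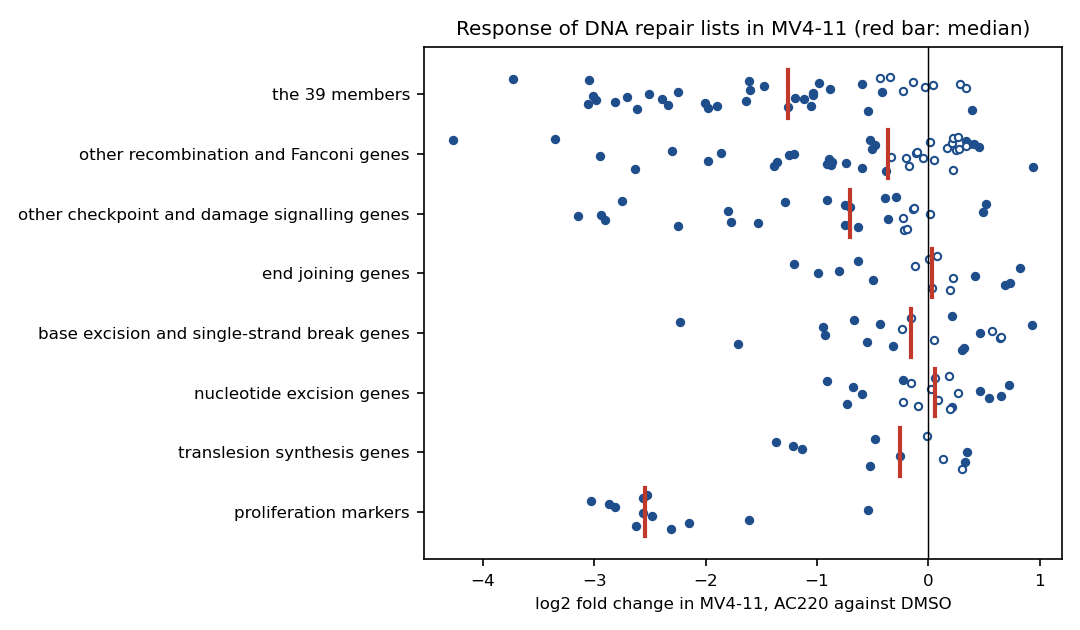
Log2 fold change in MV4-11 (AC220 against DMSO, horizontal axis) of each gene of the 39, of 6 other repair lists and of 12 proliferation markers; filled points passed an adjusted p of 0.05 and red bars are medians. The median of the 39 is -1.26, those of the end joining and nucleotide excision lists are 0.03 and 0.06, and that of the proliferation markers is -2.54.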

How the data were processed

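RNA was made into 12 Lexogen QuantSeq 3' mRNA libraries, per the labels' protocols, which read transcript ends, so that counts do not grow with transcript length. Levels are not compared between genes except as ratios of partners and of overlapping genes. Those ratios are read for how they change over groups or libraries. For alignment and counting the submitters' processing notes name hg19, HISAT2 2.0.4 and featureCounts of Subread 2.0.0, without their settings. The annotation, strand setting and treatment of reads with several positions are not given in the sources used here. Raw counts were deposited by the authors, 1 row per gene symbol, together with normalised log2 values for 11075 genes, which served only as an alternative input. A row without a symbol (0.00343% to 0.00503% of a library's counts) was left out.

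Counts were filtered with filterByExpr, scaled by TMM and tested in R 4.3.3 with the robust quasi-likelihood F test of edgeR 4.0.16, in 1 fit of 4 group means over 12 libraries with 8 residual degrees of freedom, Benjamini-Hochberg adjustment over 12392 genes and a threshold of 0.05. At these depths 3 counts are 0.174 to 0.279 CPM, and the common biological coefficient of variation was 8.28%. Alternative settings were size factors by median ratio, no filter and a stricter one, DESeq2 1.42.0, limma-voom and limma on the deposited log2 values (limma 3.58.1), a replicate block, the compared libraries alone, and each library left out.

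The 39 genes, their roles and all lists were chosen with earlier results of these data known. Some genes of the other lists are not reported here. Levels per library are given for the 2 smallest p-values of each role in MV4-11, any gene called against its role, any called in OCI-AML3 and any at least 2-fold apart between the lines, and some others were added. Overlapping transcript ends come from GENCODE 29, and start regions and pseudogene names from RefSeq GRCh38.p14. RAD54B, NBN, RMI2 and FANCI have no window here. No coordinates are given in the files' own build.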

Additional observations from a re-analysis of the deposited data

Results flagged for a closer look

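The response to AC220 differed between the lines in 30 genes by the test of the difference itself (log2 fold change in MV4-11 minus that in OCI-AML3, edgeR's quasi-likelihood test, adjusted p under 0.05 over 12392 genes). All 30 differences are negative, and 23.7% of all genes tested were called lower by this test. Among the recombination mediators and their helpers they were -2.28 for BRCA1, -0.88 for BARD1, -1.13 for BRCA2, -1.05 for PALB2, -1.65 for RAD51C, -3.01 for RAD51AP1, -2.66 for RAD54B, -3.50 for XRCC2 and -1.74 for XRCC3. Among the genes of end processing they were -1.98 for RBBP8, -0.70 for NBN, -3.18 for EXO1 and -2.85 for POLQ. All 5 genes that take joined molecules apart differed: BLM by -1.50, RMI1 by -1.49, RMI2 by -3.17, MUS81 by -1.13 and EME1 by -0.93. The call of MUS81 was lost in some alternatives.

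In the Fanconi core group the differences were -2.38 for FANCC, -2.18 for FANCE, -1.64 for FANCG, -0.77 for FANCL and -3.37 for UBE2T, and among the effectors -2.27 for FANCD2, -1.74 for FANCI and -2.80 for BRIP1. The mismatch repair genes differed by -1.04 (MSH6) and -0.76 (PMS2), and the checkpoint genes CHEK1 and TOPBP1 by -2.72 and -1.29. The call of PMS2 was lost in some alternatives. RAD54B, EME1, FANCL, FANCI and MSH6 have another gene at their transcript ends.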

How the results depend on the processing

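For AC220 in MV4-11, 30 or 31 of the 39 genes were lower under every alternative. Of 780 values of single genes, 766 kept their side of the threshold, and those called also kept their direction. Another 13 passed newly (RAD54L, RAD50, PALB2 and CHEK2), and 1, FANCB without MV4-11 AC220 replicate 1, was lost. A change of sign in a value that was not called was not counted. The number called higher was 2 in place of 1 with median-ratio size factors, DESeq2, limma-voom and the fit of the compared libraries alone, RAD54L being the second, and 1 to 2 with a library left out (2 without MV4-11 AC220 replicate 3, OCI-AML3 DMSO replicate 2 or 3, or OCI-AML3 AC220 replicate 1 or 3). In OCI-AML3, the number higher was 0 with limma on the deposited values, 2 in the fit of the compared libraries alone and 0 to 6 with a library left out. The number lower was 1 with DESeq2 and limma-voom (BRCA1) and 0 to 1 with a library left out. Calls over all genes in OCI-AML3 were 489, but 836 without a filter, 801 with DESeq2, 1 with limma on the deposited values and 13 to 1136 with a library left out: 13 and 15 without OCI-AML3 DMSO replicate 1 and 2, 116 and 22 without OCI-AML3 AC220 replicate 2 and 3, 998 without OCI-AML3 DMSO replicate 3, 944 without OCI-AML3 AC220 replicate 1 and 1136 without MV4-11 AC220 replicate 1. The cause was not tested. Of 779 values of single genes in OCI-AML3, 41 were lost and 7 passed newly. For the difference between the lines, 28 to 32 genes differed, and the number higher was 0 to 1 with a library left out. MUS81 and PMS2 lost their calls in some of these fits, and FANCA, FANCM and ATM passed newly in at least 1. Under DMSO 9 genes were higher in MV4-11 and 12 to 17 lower, and ATR, FANCA, FANCG, MSH6, TOPBP1, UBE2T and XRCC3 lost their call in at least 1 fit. No value changed its sign with a call.

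Deviations of same-numbered libraries correlated at -0.181 to 0.180, and a library correlated best with its own number in 13 of 36 comparisons. Between DMSO and AC220 these correlations were 0.0843, 0.0494 and 0.180 in OCI-AML3 and -0.120, -0.0936 and -0.0803 in MV4-11. Whether replicate numbers pair the libraries cannot be told from these values. With the replicate block 3 genes in place of 5 were higher in OCI-AML3, and 381 genes were called in all. Counts of replicates differed by a chi-square of 2.86 to 11.2 per degree of freedom, and no libraries held the same values. Depth limits the low genes: RAD54B, XRCC2, EXO1, POLQ, FANCB, FANCF and BRIP1 had 36 to 85 counts over the 3 MV4-11 AC220 libraries.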

Other observations

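A list of 17 genes held E2F factors and pocket proteins and also LIN9, LIN37, LIN52, LIN54, MYBL2 and FOXM1, which are neither. Of the 17, 11 fell and 2 rose with AC220 in MV4-11 (26.9% and 31.5% of all genes tested), with a median log2 fold change of -0.71. MYBL2 went from 143 ± 5.99 to 14.7 ± 2.85 CPM (mean ± SD, n = 3), FOXM1 from 42.4 ± 3.46 to 6.82 ± 0.64 CPM and E2F1 from 33.5 ± 1.54 to 3.92 ± 0.63 CPM, while E2F5 (0.29) and RBL2 (0.25) rose. Of 16 p53 targets, 5 fell and 5 rose, shares near those of all genes, with a median of 0.05. Among them, SESN2 (-2.92) and CDKN1A (-2.35) fell, and TP53INP1 (1.59), ZMAT3 (0.94) and XPC (0.55) rose. In OCI-AML3 the E2F list had 3 genes called higher (3.44% of all genes), LIN54, E2F4 and E2F8, named after their values were seen. These lists were chosen with earlier results of these data known.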
